A study of Arabidopsis thaliana with 6 samples.

Results

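The cold-regulated genes described here are 10 Arabidopsis thaliana loci of the COR, KIN and dehydrin type, given by name through their locus codes, with earlier results of these data known: COR15A (AT2G42540), COR15B (AT2G42530), COR47 (AT1G20440), ERD10 (AT1G20450), KIN1 (AT5G15960), KIN2 (AT5G15970), RD29A (AT5G52310), RD29B (AT5G52300), COR413IM1 (AT1G29395) and LTI30 (AT3G50970). They make up 10 of the 28141 features left after the deposited transcripts were summed per locus. The deposited tables list 14 transcripts for them. RNA sequencing compared fip37-4 LEC1:FIP37 seedlings (3 libraries) with Wild-type seedlings (3 libraries), all of the Col-0 ecotype and taken whole at an age of 5 days. All plants grew on MS plates at 23 °C with 16 h of light and 8 h of dark, and the labels name no cold, drought or hormone treatment. FIP37 (AT3G54170) belongs to the methyltransferase complex that places N6-methyladenosine (m6A) on mRNA. The fip37-4 LEC1:FIP37 plants carry the fip37-4 allele together with a transgene in which the promoter of LEC1, an embryo gene, drives FIP37, and the Wild-type plants carry neither. Nothing in the labels ties the replicates to separate cultures, so p-values measure the spread between these libraries, which may be technical.

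Many COR (cold-regulated) and KIN genes encode hydrophilic proteins that accumulate in Arabidopsis during cold acclimation, drought or abscisic acid (ABA) treatment. Such proteins help to protect cell membranes and proteins from dehydration. COR413IM1 is instead a membrane protein. In the cold, the transcription factors CBF1, CBF2 and CBF3 bind the CRT/DRE element, whose core is CCGAC, upstream of these genes. A second route runs through ABA and the ABF factors, which bind the ABRE element, whose core is ACGTG.

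FIP37 lay between 65.0 and 80.6 FPKM (fragments scaled to transcript length and to all mapped fragments) in the 3 fip37-4 LEC1:FIP37 libraries, against 8.96 to 9.03 FPKM in the 3 Wild-type libraries. The values sum reads over the locus and do not separate the transgene from the disrupted gene. Transcripts of the chloroplast and mitochondrial genomes made up 56.9 to 60.1% of the summed FPKM in fip37-4 LEC1:FIP37 libraries, against 50.7 to 51.3% in Wild-type libraries. Total FPKM per library ran from 1241046 to 1350343 in fip37-4 LEC1:FIP37, against 1160321 to 1213140 in Wild-type. Sequencing depth is unknown here. Markers of leaf and root, named after their values were seen, were present in every library, as the label of whole plant implies. The leaf gene RBCS1A, a Rubisco small subunit, was at 6761 FPKM or more and was 1.80-fold higher in fip37-4 LEC1:FIP37 (log2 difference 0.84, limma, adjusted p = 2.88e-05). The root gene PYK10 averaged 1154 FPKM in fip37-4 LEC1:FIP37 and 1131 FPKM in Wild-type and was not called (0.03, limma, adjusted p = 0.625). The part of the RBCS1A difference in the results below was not tested.

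All 10 genes hold the CCGAC core in the 500 bases before the annotated start codon, read on either strand from TAIR10.1, the RefSeq assembly. Of 27443 genes measured the same way, 23.4% hold it. The ACGTG core, also read on both strands, was found in 9 of the 10, against 34.9% of genes, and ERD10 was without a match in this window. In the 250 bases before the annotated transcript start, 4 of the 10 held CCGAC against 11.97% of genes, and 5 held ACGTG against 22.9% of genes. CACGTG reads as ACGTG on both strands and was counted once per strand. All CCGAC matches in the 500-base window are shown because the CRT/DRE is the element for which these genes are known. Each line gives 27 bases on the gene's own strand, 5′ to 3′, with the core in capitals. In the match of COR413IM1 and in a pair of those of LTI30 the core lies on the opposite strand and reads GTCGG.
COR15A chr2:17712394-17712420: taacttgttggCCGACatacatttgtt
COR15A chr2:17712217-17712243: caatttcatggCCGACctgcttttttt
COR15B chr2:17710123-17710149: caacttgatggCCGACctcttttttct
COR47 chr1:7085917-7085943: atattcatctaCCGACttcaagaaata
ERD10 chr1:7089370-7089396: atattcatccaCCGACcgaccgacgta
ERD10 chr1:7089366-7089392: tcatccaccgaCCGACcgacgtaaaag
ERD10 chr1:7089362-7089388: ccaccgaccgaCCGACgtaaaagaaaa
KIN1 chr5:5209803-5209829: ataaatagctaCCGACataaggcaaaa
KIN2 chr5:5211770-5211796: ataaaaagctaCCGACataaggcaaaa
RD29A chr5:21240566-21240592: atagacatggaCCGACtactaataata
RD29A chr5:21240616-21240642: taaatatcataCCGACatcagtttgaa
RD29A chr5:21240673-21240699: aagatatactaCCGACatgagttccaa
RD29A chr5:21240710-21240736: aaaagatcaagCCGACacagacacgcg
RD29B chr5:21236874-21236900: ataaacgtggaCCGACtaaaactaaat
COR413IM1 chr1:10289910-10289936: aaattagttatGTCGGtaccaatgaaa
LTI30 chr3:18940531-18940557: gttaaaattacGTCGGtcgctaaccac
LTI30 chr3:18940554-18940580: ccactactacaCCGACgtcttacttgc
LTI30 chr3:18940623-18940649: acttttacgatGTCGGccaacacgtat
COR15A, COR15B, COR47, ERD10 and COR413IM1 lie on the minus strand and the other genes on the plus strand. The match in COR15A nearest to the start codon begins 266 bases before it, and that of COR15B 265 bases before its own. KIN1 and KIN2 have theirs at 178 and 185 bases. In RD29A, 4 matches lie in this window, in RD29B 1, in LTI30 3 and in ERD10 3, which overlap. The CCGAC matches of COR15B, COR47, ERD10, KIN1 and KIN2 all lie between the annotated transcript start and the start codon. The same holds for the COR15A match at 266 bases and the RD29A match at 208 bases. A match describes letters, not binding. The genes were chosen as known cold-regulated genes, so their share with the core is no test.

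COR15A was the gene of the 10 that differed most between the genotypes, and its neighbour COR15B was not called. Both encode small proteins of the chloroplast stroma, known for stabilising chloroplast membranes during freezing. COR15A had 178.7, 170.7 and 171.3 FPKM in fip37-4 LEC1:FIP37 seedlings, against 50.5, 50.5 and 53.7 FPKM in Wild-type seedlings. The groups did not overlap, and the means were 173.6 ± 4.42 FPKM in fip37-4 LEC1:FIP37 and 51.6 ± 1.85 FPKM in Wild-type (SD, n = 3 each), a 3.37-fold difference. In limma on log2(FPKM + 0.5), a scale that understates changes of low genes, COR15A was higher by 1.74 ± 0.047 (log2 difference ± SE, adjusted p = 1.97e-07). Adjusted p-values throughout are those of limma with Benjamini-Hochberg adjustment over the 19383 loci tested, and genes were called at 0.05. COR15A ranked 71 among the 5358 loci called higher, and it was the only one of the 10 past a 2-fold difference on the log2(FPKM + 0.5) scale, which 403 loci called higher reached. By the ratio of mean FPKM, RD29B was past it too.

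COR15B had 49.0, 49.0 and 48.0 FPKM in fip37-4 LEC1:FIP37 seedlings, against 48.6, 50.9 and 49.2 FPKM in Wild-type seedlings. These groups overlapped, and the log2 difference was -0.03, with a 95% interval of -0.12 to 0.07 (limma, adjusted p = 0.623). The interval leaves out any difference of the size seen at COR15A, whose own interval was 1.63 to 1.85. COR15A lies at chr2:17710441-17712330 and COR15B at chr2:17708593-17710433, both on the minus strand of TAIR10.1 and 7 bases apart. The gene AT2G42520 overlaps the end of COR15B by 468 bases on the other strand and averaged 1.83 FPKM in fip37-4 LEC1:FIP37 and 2.28 FPKM in Wild-type libraries, low beside COR15B. Almost all COR15A signal was assigned to isoform 2, with 99.9%, 99.9% and 100% of the locus in the fip37-4 LEC1:FIP37 libraries.

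The log2 ratio of COR15A to COR15B within a library was 1.86, 1.79 and 1.82 in fip37-4 LEC1:FIP37, against 0.06, -0.01 and 0.13 in Wild-type. The pair was at nearly equal FPKM in Wild-type seedlings and not in fip37-4 LEC1:FIP37 seedlings. The mean ratio differed by 1.77 between the groups (exact two-sided permutation test, p = 0.1, adjusted over the 4 tandem pairs 0.133), and 3 libraries against 3 cannot give a p below 0.1. Each fip37-4 LEC1:FIP37 library was above each Wild-type library. Bases 1 to 210 of each coding sequence, spliced from TAIR10.1 (COR15A within chr2:17711241-17711966, COR15B within chr2:17709191-17709873, minus strand), are printed because they show how far reads can tell the copies apart. Positions that differ between them are in capitals.
COR15A: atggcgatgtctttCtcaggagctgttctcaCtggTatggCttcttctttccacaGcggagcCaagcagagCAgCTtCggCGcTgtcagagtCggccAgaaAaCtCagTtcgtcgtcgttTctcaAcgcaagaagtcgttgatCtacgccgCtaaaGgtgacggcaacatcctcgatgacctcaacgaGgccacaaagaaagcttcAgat
COR15B: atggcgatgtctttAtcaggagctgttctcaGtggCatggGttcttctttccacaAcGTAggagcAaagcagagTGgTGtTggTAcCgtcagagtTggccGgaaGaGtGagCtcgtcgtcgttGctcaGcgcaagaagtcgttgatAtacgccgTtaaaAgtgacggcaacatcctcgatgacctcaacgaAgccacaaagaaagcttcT
The whole coding sequences measure 420 and 426 bases and are identical at 82.9% of 428 aligned columns. The longest run the transcripts share is 31 bases, and no stretch of 50 bases is shared.

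ERD10, LTI30 and COR47 are dehydrins, disordered proteins that bind water and membranes, and ERD10 and LTI30 were higher in fip37-4 LEC1:FIP37 while COR47 was not called. ERD10, an acidic dehydrin, had 102.3, 96.7 and 94.9 FPKM in fip37-4 LEC1:FIP37 seedlings, against 65.5, 66.3 and 63.3 FPKM in Wild-type seedlings. All fip37-4 LEC1:FIP37 libraries were above all Wild-type libraries, and the log2 difference was 0.59 ± 0.047 (limma, adjusted p = 1.99e-05), a 1.51-fold ratio of means.
LTI30, a basic dehydrin that binds to membranes, had 17.96, 16.65 and 19.21 FPKM in fip37-4 LEC1:FIP37 seedlings, against 12.28, 11.97 and 11.55 FPKM in Wild-type seedlings. These groups were also apart, with means of 17.9 ± 1.28 FPKM in fip37-4 LEC1:FIP37 and 11.9 ± 0.367 FPKM in Wild-type (SD, n = 3 each). The log2 difference was 0.57 ± 0.060 (limma, adjusted p = 8.60e-05).

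COR47, the neighbour of ERD10, had 172.7, 179.3 and 163.4 FPKM in fip37-4 LEC1:FIP37 seedlings, against 165.9, 165.9 and 169.2 FPKM in Wild-type seedlings. The groups overlapped, and the log2 difference of 0.04 had a 95% interval of -0.07 to 0.15 (limma, adjusted p = 0.506). COR47 was called only after quantile normalization, at 0.29 (adjusted p = 0.00103). The log2 ratio of ERD10 to COR47 averaged -0.81 ± 0.071 in fip37-4 LEC1:FIP37 and -1.35 ± 0.050 in Wild-type (SD, n = 3 each), a difference of 0.55 (exact permutation test, p = 0.1). ERD10 at chr1:7087903-7089606 and COR47 at chr1:7084409-7086873, both on the minus strand, are 1029 bases apart, and their coding sequences are identical at 74.3% of aligned columns.

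No dehydrin outside the set was called higher. Of 7 on the list, 4 were tested and 25% of these were called, against 58.6% of all loci tested. Of the 4, 3 were not called and 1 was called lower. That one was HIRD11, which had 360.3, 390.1 and 412.3 FPKM in fip37-4 LEC1:FIP37 seedlings, against 528.4, 515.8 and 495.9 FPKM in Wild-type seedlings. It was lower by a log2 difference of -0.41 (limma, adjusted p = 0.000563), with the groups apart. RAB18, an ABA-induced dehydrin, averaged 10.6 ± 1.64 FPKM in fip37-4 LEC1:FIP37 and 10.8 ± 0.780 FPKM in Wild-type (SD, n = 3 each) and was not called, with a sign that changed between processing settings. The count of other dehydrins called higher was 1 after quantile normalization, 2 after removing a trend with transcript length and 1 with a replicate block.

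KIN2 was higher in fip37-4 LEC1:FIP37, with wide spread, and its near-identical neighbour KIN1 was not called. Both encode very small hydrophilic proteins that cold and ABA induce. KIN2, the gene with the highest FPKM of the 10 in both genotypes, had 276.7, 396.0 and 376.0 FPKM in fip37-4 LEC1:FIP37 seedlings, against 258.3, 257.1 and 204.1 FPKM in Wild-type seedlings. The groups did not overlap, but the lowest fip37-4 LEC1:FIP37 library stood close to the highest Wild-type library. Means were 349.5 ± 63.9 FPKM in fip37-4 LEC1:FIP37 and 239.8 ± 31.0 FPKM in Wild-type (SD, n = 3 each), and the log2 difference was 0.53 ± 0.155 (limma, adjusted p = 0.0224). With Wild-type replicate 3 left out, KIN2 was no longer called (0.42, adjusted p = 0.053), nor with fip37-4 LEC1:FIP37 replicate 2 left out (0.44, adjusted p = 0.0646) or replicate 3 of that genotype (0.47, adjusted p = 0.0644).

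KIN1 had 11.7, 11.3 and 11.9 FPKM in fip37-4 LEC1:FIP37 seedlings, against 12.01, 10.15 and 8.25 FPKM in Wild-type seedlings. The highest of these libraries was a Wild-type one, and the log2 difference of 0.20 had a 95% interval of -0.06 to 0.47 (limma, adjusted p = 0.163). It was called without Wild-type replicate 1 (0.33, adjusted p = 0.018) and with the length trend removed (0.45, adjusted p = 0.0111). The log2 ratio of KIN2 to KIN1 was 4.51, 5.07 and 4.92 in fip37-4 LEC1:FIP37, against 4.37, 4.60 and 4.55 in Wild-type, which overlap (difference 0.33, exact permutation test, p = 0.3). KIN2 lies at chr5:5211719-5212743 and KIN1 at chr5:5209717-5210826, both on the plus strand and 892 bases apart. Their coding sequences from TAIR10.1 (KIN2 chr5:5211966-5212441, KIN1 chr5:5209992-5210473) are printed because they are the most alike of the 4 tandem pairs. The differing positions are in capitals.
KIN2: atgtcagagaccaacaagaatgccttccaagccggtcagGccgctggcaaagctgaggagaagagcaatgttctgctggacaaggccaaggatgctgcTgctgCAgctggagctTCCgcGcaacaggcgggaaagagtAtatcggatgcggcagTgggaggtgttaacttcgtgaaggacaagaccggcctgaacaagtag
KIN1: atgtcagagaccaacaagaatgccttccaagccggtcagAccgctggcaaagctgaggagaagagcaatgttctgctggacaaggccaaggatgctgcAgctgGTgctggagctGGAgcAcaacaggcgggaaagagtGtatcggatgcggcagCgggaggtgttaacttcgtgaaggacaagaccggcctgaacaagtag
Each measures 201 bases, and they differ at 10. The transcripts share a run of 58 bases, and 1.43% of the 50-base stretches of KIN2 and 0% of its 100-base stretches also occur in KIN1. How the authors' counting assigned reads of the shared stretch is unknown here.

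RD29B was higher in fip37-4 LEC1:FIP37 at a very low level, and its neighbour RD29A was not called. Both encode hydrophilic proteins, and their promoters serve as reporters, that of RD29A for cold, drought and ABA and that of RD29B chiefly for ABA. RD29B had 1.49, 1.72 and 1.05 FPKM in fip37-4 LEC1:FIP37 seedlings, against 0.674, 0.701 and 0.707 FPKM in Wild-type seedlings. The groups did not overlap, and the log2 difference was 0.67 ± 0.137 (limma, adjusted p = 0.00309), with a 2.05-fold ratio of means that the added 0.5 FPKM draws in. From the smallest steps in the values these levels stand for about 103, 144 and 60.9 fragments in fip37-4 LEC1:FIP37 and 49.5, 56.1 and 50.9 fragments in Wild-type libraries, an estimate that rests on the RefSeq transcript length.

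RD29A had 16.2, 16.6 and 14.0 FPKM in fip37-4 LEC1:FIP37 seedlings, against 13.7, 13.7 and 14.2 FPKM in Wild-type seedlings. The lowest fip37-4 LEC1:FIP37 library lay within the Wild-type range, and the log2 difference of 0.16 had a 95% interval of 0.01 to 0.31 before adjustment over loci (limma, adjusted p = 0.0687). RD29A was called at 0.27 under quantile normalization (adjusted p = 0.00986) and at 0.23 when fip37-4 LEC1:FIP37 replicate 3 was dropped (adjusted p = 0.00794). RD29B to RD29A stood at a log2 ratio of -3.08 ± 0.141 in fip37-4 LEC1:FIP37 and -3.59 ± 0.022 in Wild-type (SD, n = 3 each), a difference of 0.51 (exact permutation test, p = 0.1). The neighbours lie at chr5:21237021-21239531 and chr5:21240717-21243644 on the plus strand, and their coding sequences are identical at 62.3% of aligned columns. CYP96A4, on the far side of RD29A and named after its values were seen, averaged 4.07 FPKM in fip37-4 LEC1:FIP37 and 1.15 FPKM in Wild-type (log2 difference 1.47, limma, adjusted p = 5.64e-06). Genes flanking other members went both ways. AT5G15950 beside KIN1 (0.41) and AT5G15980 beside KIN2 (0.33) were called higher. AT1G20430 beside COR47 (-0.49), PLP3a beside LTI30 (-0.34) and AT1G20460 beside ERD10 (-0.22) were called lower.

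**Figure D1:**
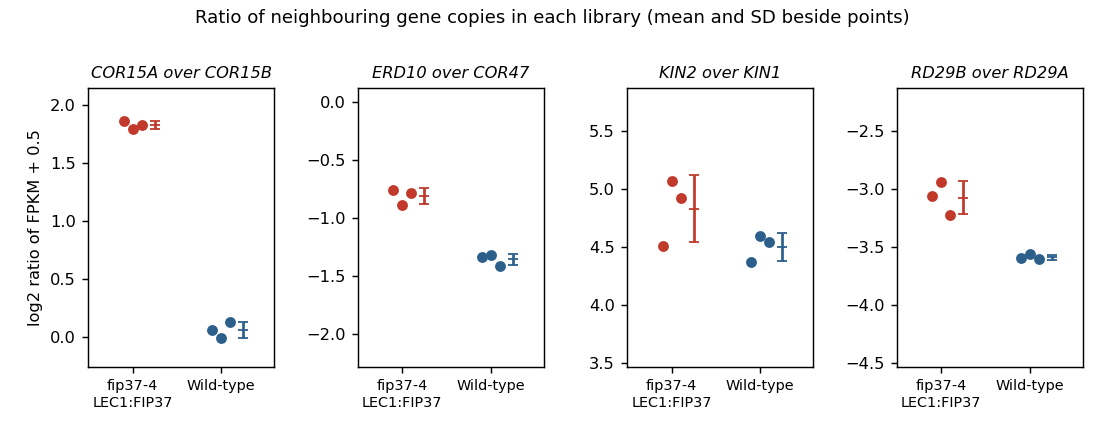
Log2 ratio of the FPKM values (0.5 added) of neighbouring copies in each library, in 4 panels, with fip37-4 LEC1:FIP37 left of Wild-type; points are libraries and bars the mean and SD of 3. The COR15A to COR15B ratio stands at 1.82 in fip37-4 LEC1:FIP37 and 0.06 in Wild-type, whereas the KIN2 to KIN1 ratios overlap.

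COR413IM1, a protein of the chloroplast inner envelope membrane, was higher in fip37-4 LEC1:FIP37, and its close neighbour COR413IM2 of the same family was lower. COR413IM1 had 55.7, 61.9 and 60.7 FPKM in fip37-4 LEC1:FIP37 seedlings, against 44.1, 43.9 and 44.9 FPKM in Wild-type seedlings. The groups were apart, with a 1.34-fold ratio of means and a log2 difference of 0.42 ± 0.051 (limma, adjusted p = 0.000184). COR413IM2 had 26.9, 30.6 and 35.2 FPKM in fip37-4 LEC1:FIP37 seedlings, against 42.7, 40.4 and 40.2 FPKM in Wild-type seedlings, a log2 difference of -0.41 (limma, adjusted p = 0.00405). These also did not overlap. COR413IM1 lies at chr1:10288129-10289666 on the minus strand, 25 bases from COR413IM2.

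Of the 5 other COR413 genes, all were tested, 2 were called higher and 2 lower. The share called was 80%, against 58.6% of all loci tested. COR413-PM2 was among the lower ones, at 29.4 FPKM in fip37-4 LEC1:FIP37 and 38.8 FPKM in Wild-type (log2 difference -0.39, limma, adjusted p = 0.000158). The higher calls were those of COR413-PM1 (0.15, adjusted p = 0.018) and AT2G23680 (0.41, adjusted p = 0.0482). They were lost in 6 and in 11 of 16 alternative settings. COR413-PM1 had an adjusted p of 0.0655 when fip37-4 LEC1:FIP37 replicate 3 was left out, and of 0.0555 to 0.0635 when any Wild-type library was left out. AT2G23680 had one of 0.0578 to 0.141 when any library other than Wild-type replicate 1 was left out. The count of higher COR413 genes was 0 without Wild-type replicate 2, without Wild-type replicate 3 and without fip37-4 LEC1:FIP37 replicate 3, and 1 without each of the other libraries.

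**Figure D2:**
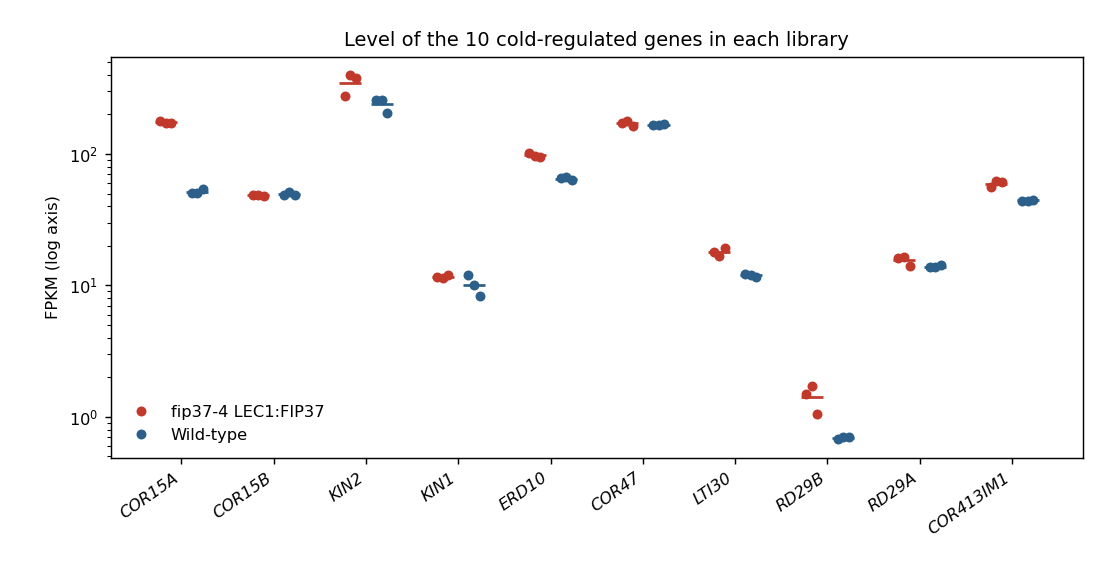
FPKM of each gene in every library on a log axis, with fip37-4 LEC1:FIP37 left of Wild-type and bars at the mean of 3 libraries. KIN2 is the highest gene and RD29B the lowest in both genotypes, and COR15A has 173.6 FPKM in fip37-4 LEC1:FIP37 and 51.6 FPKM in Wild-type.

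FPKM is scaled by transcript length, and levels were ordered between genes on that basis. The transcript lengths the authors used are unknown here, so close ranks are uncertain. In fip37-4 LEC1:FIP37 seedlings the order of FPKM levels from the top was KIN2, COR15A, COR47, ERD10, COR413IM1, COR15B, LTI30, RD29A, KIN1 and RD29B, and among neighbours in it the ranges of COR15A and COR47 overlapped. In Wild-type seedlings it was KIN2, COR47, ERD10, COR15A, COR15B, COR413IM1, RD29A, LTI30, KIN1 and RD29B, with overlap between COR15A and COR15B and between LTI30 and KIN1. The order differs mostly through COR15A, which stood next to COR47 in fip37-4 LEC1:FIP37 and next to COR15B in Wild-type.
Summed over the 10 genes, FPKM was 882.3, 999.8 and 960.5 in fip37-4 LEC1:FIP37 libraries, against 671.6, 671.2 and 619.2 in Wild-type libraries. Without COR15A the sums were 703.6, 829.1 and 789.2 in fip37-4 LEC1:FIP37, against 621.1, 620.7 and 565.5 in Wild-type. The groups stayed apart in both sums. In bulk seedlings, a difference in the number of cells of a type and a difference in RNA per cell cannot be told apart.

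**Figure D3:**
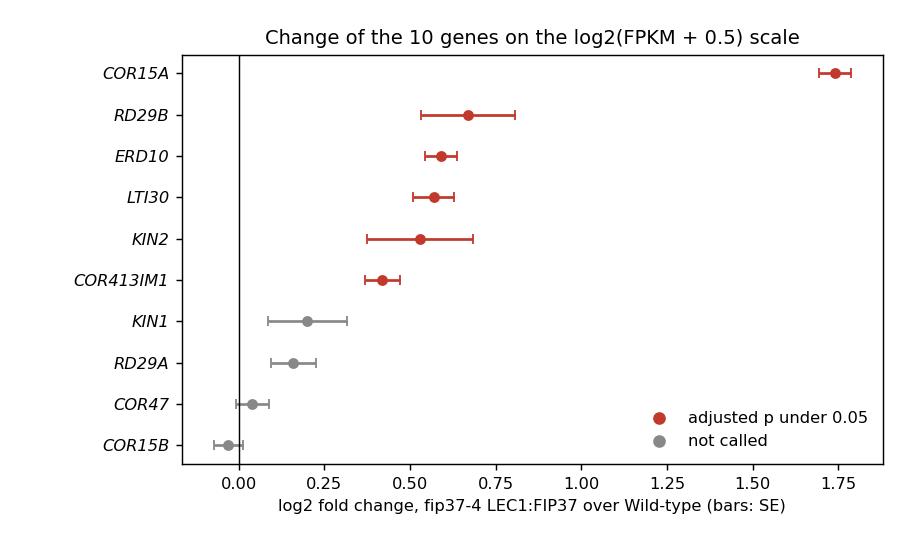
Log2 difference (fip37-4 LEC1:FIP37 minus Wild-type) of the 10 genes with its standard error from limma; red marks genes called at an adjusted p under 0.05 and grey those not called. COR15A stands at 1.74, 5 other genes lie between 0.42 and 0.67, and COR15B lies at -0.03.

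All 10 genes passed the filter and were tested. Of these, 6 (60%) were called higher, none was called lower and 4 were not called, and by the share called in either direction, 60%, they stood near the 58.6% of all 19383 loci tested. Higher calls made up 27.6% of all loci and lower calls 30.9%. The groups did not overlap for 6 of the 10, against 65.9% of all loci. The median log2 difference was 0.48 over the 10 genes and -0.0019 over all loci. In each of the 4 tandem pairs 1 partner was called higher and 1 was not, and the exact test of the difference between partners, with 3 libraries against 3, could not have passed 0.05 in any of them. The number called higher was 5 without Wild-type replicate 3 or without fip37-4 LEC1:FIP37 replicate 2, 7 without Wild-type replicate 1 and 9 after quantile normalization. Scaled to nuclear loci alone, which takes out the organellar share, it was 6.

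The CBF factors, which activate COR genes in the cold, were low at 23 °C. CBF2 had 8.19, 9.63 and 9.52 FPKM in fip37-4 LEC1:FIP37 seedlings, against 5.40, 6.04 and 6.11 FPKM in Wild-type seedlings. The groups were apart, at a log2 difference of 0.60 ± 0.078 (limma, adjusted p = 0.00027). CBF3 had 3.26, 4.16 and 4.28 FPKM in fip37-4 LEC1:FIP37 seedlings, against 2.37, 2.11 and 3.70 FPKM in Wild-type seedlings, and was not called (0.47, limma, adjusted p = 0.0552). It was called in 5 of 16 alternative settings, among them leaving out Wild-type replicate 3 (0.68, adjusted p = 0.00381) and leaving out fip37-4 LEC1:FIP37 replicate 1 (0.58, adjusted p = 0.0379). CBF1 averaged 3.23 ± 0.175 FPKM in fip37-4 LEC1:FIP37 and 2.91 ± 0.256 FPKM in Wild-type (SD, n = 3 each) and was not called (0.13, limma, adjusted p = 0.197). CBF1 was called with the length trend removed (0.27, adjusted p = 0.0169). CBF4 and DDF2 were listed at 0 in all libraries.

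Of 27 CBF factors and their regulators, 24 were tested, 11 were called higher, 4 lower and 9 were not called, with a median log2 difference of 0.16. The share called, 62.5%, was near the 58.6% of all loci. PIF7, a phytochrome-interacting factor that represses CBF genes, averaged 12.3 ± 0.263 FPKM in fip37-4 LEC1:FIP37 and 6.42 ± 0.346 FPKM in Wild-type (SD, n = 3 each; log2 difference 0.89, limma, adjusted p = 6.06e-06). ZAT12, a zinc-finger protein that represses CBF genes, averaged 7.77 ± 1.02 FPKM in fip37-4 LEC1:FIP37 and 3.98 ± 0.0936 FPKM in Wild-type (0.88, adjusted p = 7.46e-05). MYB15, another known repressor of CBF genes, averaged 1.396 ± 0.316 FPKM in fip37-4 LEC1:FIP37 and 0.722 ± 0.130 FPKM in Wild-type (0.63, adjusted p = 0.00535). ICE1, an activator of CBF3, averaged 12.2 FPKM in fip37-4 LEC1:FIP37 and 14.2 FPKM in Wild-type and was lower (-0.22, limma, adjusted p = 0.0447). The groups of ICE1 overlapped, and its call was lost in 8 of 16 alternative settings. Among them were those without Wild-type replicate 2 (adjusted p = 0.108), Wild-type replicate 3 (0.151), fip37-4 LEC1:FIP37 replicate 1 (0.0964) and fip37-4 LEC1:FIP37 replicate 3 (0.0795). The count of lower calls was 2 without Wild-type replicate 3 and 2 without fip37-4 LEC1:FIP37 replicate 3. Further regulators were named after their values were seen. ICE2 (0.26, limma, adjusted p = 0.0138), SIZ1 (0.31, adjusted p = 0.0003), CAMTA1 (0.17, adjusted p = 0.0231) and CAMTA2 (0.15, adjusted p = 0.0482) were higher. So were PIF4 (0.52, adjusted p = 0.000625), PUB26 (0.5, adjusted p = 0.000242) and ZAT10 (0.35, adjusted p = 0.00368). SOC1 (-0.42, adjusted p = 0.000547), PIF3 (-0.37, adjusted p = 0.00703) and CAMTA3 (-0.14, adjusted p = 0.0351) were lower.

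Of 22 ABA and drought regulators, 19 were tested, 9 were called higher, 2 lower and 8 were not called, with a median log2 difference of 0.17. The share called, 57.9%, was also near that of all loci. The higher count was 5 without Wild-type replicate 2. ABF3, a factor that binds the ABRE, averaged 15.1 ± 0.436 FPKM in fip37-4 LEC1:FIP37 and 9.54 ± 0.246 FPKM in Wild-type (SD, n = 3 each; log2 difference 0.64, limma, adjusted p = 1.49e-05). Others were named after their values were seen. ABF2 was higher (0.27, adjusted p = 0.0171), ABF1 was lower (-0.28, adjusted p = 0.00202) and ABF4 was not called. Of the ABA synthesis genes, ABA1 (0.32, adjusted p = 0.000695), AAO3 (0.2, adjusted p = 0.0249) and NCED3 (0.15, adjusted p = 0.0405) were higher. ABA2 and ABA3 were not called. The ABA 8'-hydroxylase genes CYP707A1, CYP707A2 and CYP707A4, whose enzymes break down ABA, were higher, and CYP707A3 of the same family was not called (log2 difference 0.06, limma, adjusted p = 0.694). Of these, CYP707A1 averaged 3.63 ± 0.294 FPKM in fip37-4 LEC1:FIP37 and 2.28 ± 0.152 FPKM in Wild-type (0.57, adjusted p = 0.000528). The log2 difference was 0.50 for both CYP707A2 (adjusted p = 0.00782) and CYP707A4 (adjusted p = 0.00842). CYP707A2 had 0.797, 0.700 and 0.891 FPKM in fip37-4 LEC1:FIP37, against 0.429, 0.513 and 0.322 FPKM in Wild-type. It would not have passed the filter of 0.5 FPKM without the fip37-4 LEC1:FIP37 libraries. DREB2A, a drought-activated factor that binds the same core as the CBFs, averaged 2.95 FPKM in fip37-4 LEC1:FIP37 and 2.87 FPKM in Wild-type and was not called (0.04, limma, adjusted p = 0.753).

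Other cold and drought response genes moved in both directions. Of 28 tested, 11 were called higher, 7 lower and 10 were not called, and the median log2 difference was 0.08. The share called was 64.3%, near the 58.6% of all loci tested. LTP4, a lipid transfer protein, averaged 14.7 ± 1.01 FPKM in fip37-4 LEC1:FIP37 and 3.05 ± 0.118 FPKM in Wild-type (SD, n = 3 each; log2 difference 2.1, limma, adjusted p = 2.85e-07). The neighbouring lipid transfer protein gene LTP3 averaged 35.6 ± 1.01 FPKM in fip37-4 LEC1:FIP37 and 14.9 ± 0.645 FPKM in Wild-type (1.23, adjusted p = 1.05e-06). RD20, a caleosin induced by drought and ABA, averaged 15.6 ± 0.862 FPKM in fip37-4 LEC1:FIP37 and 6.01 ± 0.835 FPKM in Wild-type (1.31, adjusted p = 1.03e-05).
COR27, a cold-induced gene under the clock, went the other way, with 7.07, 7.09 and 7.49 FPKM in fip37-4 LEC1:FIP37 seedlings, against 19.0, 17.6 and 18.5 FPKM in Wild-type seedlings. Its log2 difference was -1.29 (limma, adjusted p = 1.01e-06), and taking each transcript on its own it was -0.92 and not called (adjusted p = 0.0574). GOLS1, a galactinol synthase that makes the precursor of raffinose sugars, was named after its values were seen. It averaged 20.6 FPKM in fip37-4 LEC1:FIP37 and 9.65 FPKM in Wild-type (1.05, adjusted p = 2.55e-06). GOLS2 of the same family was not called (-0.19, adjusted p = 0.17). Also named after their values were seen, COR28 (-1.12, adjusted p = 9.67e-05), ERD1 (-0.62, adjusted p = 1.3e-05) and GRP7 (-0.6, adjusted p = 0.000172) were lower. The higher count includes GOLS3, which passed the filter only through the fip37-4 LEC1:FIP37 libraries.

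**Figure D4:**
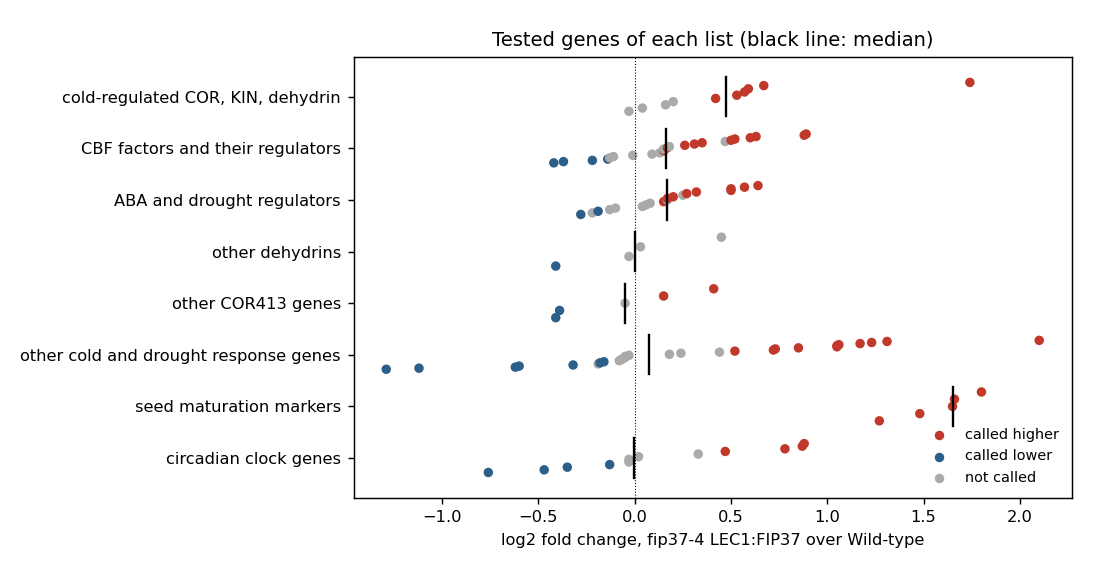
Log2 difference (fip37-4 LEC1:FIP37 minus Wild-type) of the tested genes of each list; red marks genes called higher, blue called lower and grey not called, and the black line is the median. The 10 cold-regulated genes have a median of 0.48, the seed maturation markers shown are the 5 that passed the filter, and the medians of the other lists lie between -0.05 and 0.17.

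Some seed maturation and clock genes differed between the genotypes, and their part in the results above was not tested. Of 15 seed maturation markers, 10 were below the filter and 5 were called higher. One of these, CRC, passed the filter only through the fip37-4 LEC1:FIP37 libraries (1.24, 1.08 and 1.04 FPKM, against 0.284, 0.165 and 0.0846 FPKM in Wild-type). With no filter the number called higher was 9. With the filter, 27.6% of all loci tested were called higher. The summed level over the 15 was 20.9 to 21.0 FPKM in fip37-4 LEC1:FIP37 libraries, against 5.05 to 6.04 FPKM in Wild-type libraries. EM1, a late embryogenesis abundant gene, and SESA1, a 2S albumin, were at 0 in all Wild-type libraries and at 0.118 FPKM or less in fip37-4 LEC1:FIP37 libraries. EM6, another late embryogenesis abundant gene, averaged 3.96 FPKM in fip37-4 LEC1:FIP37 and 0.798 FPKM in Wild-type (1.80, limma, adjusted p = 1.34e-05). The oil body genes OLEO2 (1.66) and OLEO1 (1.65) and the storage protein gene CRA1 (1.48) were higher as well. OLEO1, at 0.377, 0.656 and 0.716 FPKM in Wild-type, would not have passed the filter without the fip37-4 LEC1:FIP37 libraries.
Of 12 clock genes, all tested, 4 were called higher, 4 lower and 4 were not called, with a median log2 difference of -0.01. The share called was 66.7%, against 58.6% of all loci tested. The summed level of the 12 was 127.5 to 131.1 FPKM in fip37-4 LEC1:FIP37 libraries, against 145.7 to 150.7 FPKM in Wild-type libraries. CCA1, a clock factor of the morning, averaged 5.31 ± 0.229 FPKM in fip37-4 LEC1:FIP37 and 2.90 ± 0.355 FPKM in Wild-type (SD, n = 3 each; log2 difference 0.78, limma, adjusted p = 0.000122). RVE8 (0.88) and PRR9 (0.87) were also higher, whereas PRR5, a later-phased clock gene, averaged 10.1 ± 0.422 FPKM in fip37-4 LEC1:FIP37 and 17.4 ± 0.414 FPKM in Wild-type and was lower (-0.76, adjusted p = 7.48e-06). The labels give no hour of harvest.

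The loci whose centred log2 profile over the 6 libraries lay nearest to the mean profile of the 10 genes were AT2G30505, AT3G51950, AT3G52250, SPA3 and DEK1. Their Euclidean distances were 0.0412, 0.0448, 0.0453, 0.0486 and 0.0544, and their log2 differences were 0.49 or 0.50, against 0.49 for the mean profile. The loci were picked by this distance, so the likeness of the log2 differences follows from the choice. SPA3, a suppressor of light signalling, averaged 4.12 FPKM in fip37-4 LEC1:FIP37 and 2.80 FPKM in Wild-type.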

How the data were processed

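RNA was sequenced from ribosomal RNA-depleted strand-specific libraries of whole seedlings, per the labels' protocols. The authors deposited FPKM for each transcript. The submitters' processing notes name TopHat2 2.0.9, Cufflinks 2.1.1 and the build TAIR10. No file header states FPKM, which was inferred from Cufflinks. The sources used here give neither strand setting, annotation nor depth, so values carry no counting interval. FPKM is scaled to the mapped fragments of each library, so a rise in organellar RNA can lower nuclear values. Nuclear loci made up 38.1 to 39.3% of the summed FPKM in fip37-4 LEC1:FIP37, against 41.3 to 42.0% in Wild-type. The median log2 difference over all loci was -0.0019, and -0.024 when scaled to nuclear loci.

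Isoforms were summed per locus. Loci reaching 0.5 FPKM in 3 or more of the 6 libraries were tested with limma 3.58.1 (trend, robust) in R 4.3.3 on log2(FPKM + 0.5), with Benjamini-Hochberg adjustment. The script was tested on simulated data. Tandem ratios were compared by exact permutation. Sequences were read from TAIR10.1 and aligned with Biopython 1.88 in Python 3.11.15. The members and lists were chosen with earlier results of these data known. Named besides the members were FIP37, CBF1, CBF2, CBF3, ICE1, DREB2A, RAB18, COR413IM2, up to 4 called genes of each list with the largest change, and the 5 nearest profiles. Alternatives were other pseudocounts, filters, variance models and scalings, single transcripts, a replicate block, and each library left out.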

Additional observations from a re-analysis of the deposited data

How the results depend on the processing

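The count of the 10 genes called higher was 6 with a replicate block, and 5 to 7 when each library was left out in turn. The block changed no call among the 10, and it called CBF3 (adjusted p = 0.022) and lost COR413-PM1 (adjusted p = 0.0595) and AT2G23680 (adjusted p = 0.0754). Same-numbered libraries did not deviate together (r across genes of -0.0278, -0.0491 and -0.0573), which gives no sign of pairing. The labels do not say whether they were grown or prepared together, and these correlations cannot settle it. COR15A, ERD10, RD29B, COR413IM1 and LTI30 kept their direction and call in all 16 alternatives, with log2 differences of 1.72 to 1.96, 0.56 to 0.87, 0.50 to 0.91, 0.39 to 0.67 and 0.52 to 0.78.

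Genes that were not called changed sign in places, and the cause was not tested. COR15B was at 0.20 after quantile normalization (adjusted p = 0.00967) and at 0.027 with the length trend removed, where COR47 was at -0.0018. DREB2A was at -0.057 after quantile normalization and between -0.0093 and 0.10 with a library left out. RAB18 was at 0.04 after quantile normalization, at 0.16 with the length trend removed and between -0.12 and 0.090 with a library left out. Low FPKM and an unknown depth limit statements on RD29B.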
